A study of Homo sapiens with 18 samples.

Results

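GADD45A, GADD45B and GADD45G, the 3 genes of the GADD45 family, and GDF15 were followed through the daphnetin series as the rows of the count table that carry these symbols, 4 of the 56303 genes listed. They were picked with their own responses in these libraries known, so their levels and fold changes are given below as descriptions with standard errors and without tests. The series exposed the human ovarian cancer cell lines SKOV3 and A2780 to daphnetin, a dihydroxycoumarin, and asked which mRNAs and pathways respond to it. There were 6 groups of 3 libraries: SKOV3 with the solvent DMSO, with daphnetin at 20 mg/L or at 40 mg/L, and A2780 with the same 3 treatments. All cells carry the label WT, and the labels name no genetic change in any group. The labels give DMEM and RPMI-1640 media with serum for the lines, so line and medium cannot be told apart. They give neither the time of exposure nor whether the 3 libraries of a group came from separate cultures, and each line stands for 1 tumour.

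GADD45 proteins are small, acidic, mostly nuclear proteins without known enzyme activity that are induced by growth arrest and DNA damage. They bind PCNA, p21, the CDK1 and cyclin B1 complex and the stress kinase MAP3K4, and are known for slowing entry into mitosis and feeding into the p38 and JNK pathways. GDF15 is a secreted, distant member of the TGF-beta superfamily that is cleaved from a precursor and signals through GFRAL with the co-receptor RET. GADD45A and GDF15 are known to be induced by DNA damage and, through ATF4 and CHOP, by the eIF2alpha stress response, while GADD45B is known as a target of NF-kB and of TGF-beta signalling.

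In GRCh38, the build of the table, GADD45A lay on chromosome 1 from 67685061 to 67688338. GADD45B lay on chromosome 19 from 2476122 to 2478259, and GADD45G on chromosome 9 from 89605013 to 89606555. GDF15 lay on chromosome 19 from 18374731 to 18389176. All 4 genes are on the plus strand, and 0% of their exonic bases overlapped exons of another gene listed in the count table. Their coding sequences had 498 bases in GADD45A, 531 in GADD45B, 480 in GADD45G and 927 in GDF15, which is 165, 176, 159 and 308 codons before the stop.

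The family members are paralogs, and the windows of 60 coding bases around their longest common stretch show how far reads could be told apart. Capitals mark bases that are equal in all 3 genes, 38 of 60, and positions count from the first base of the start codon. The window covers bases 229 to 288 in GADD45A and GADD45B and 238 to 297 in GADD45G, 5′ to 3′ on the coding strand.
GADD45A: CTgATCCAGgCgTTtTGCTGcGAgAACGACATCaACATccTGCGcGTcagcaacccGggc
GADD45B: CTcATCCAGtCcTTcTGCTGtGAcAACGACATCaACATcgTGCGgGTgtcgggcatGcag
GADD45G: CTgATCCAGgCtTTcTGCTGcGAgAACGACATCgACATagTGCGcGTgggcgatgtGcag
Even here no run of equal bases was long. Over the whole coding sequence the longest run shared by GADD45A and GADD45G was 18 bases, by GADD45A and GADD45B 15 bases, and by GADD45B and GADD45G 9 bases. Identity was 57.3% between GADD45A and GADD45B, 62.5% between GADD45A and GADD45G and 59.9% between GADD45B and GADD45G.

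Promoter windows of 300 bases, 250 before the transcription start and 50 after it, are shown for the 3 members listed in the RefSeq promoter table, so that GADD45B and GDF15, which were measurable in every library, can be set beside the nearly silent GADD45G. They are read from GRCh38.p14, plus strand, 5′ to 3′, at chr19:2475877-2476176 for GADD45B, chr9:89604762-89605061 for GADD45G and chr19:18385908-18386207 for GDF15. Capitals mark, on either strand, the TATA box letters TATAAA, the letters CCAAT that name the box of that kind, and the core E-box letters CACGTG, which are their own reverse complement.
GADD45B: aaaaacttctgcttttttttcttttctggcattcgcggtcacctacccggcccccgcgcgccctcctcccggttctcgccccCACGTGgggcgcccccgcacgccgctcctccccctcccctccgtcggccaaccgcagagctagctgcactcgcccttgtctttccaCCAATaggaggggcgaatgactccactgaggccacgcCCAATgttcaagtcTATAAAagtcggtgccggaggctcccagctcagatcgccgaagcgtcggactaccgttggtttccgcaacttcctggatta
GADD45G: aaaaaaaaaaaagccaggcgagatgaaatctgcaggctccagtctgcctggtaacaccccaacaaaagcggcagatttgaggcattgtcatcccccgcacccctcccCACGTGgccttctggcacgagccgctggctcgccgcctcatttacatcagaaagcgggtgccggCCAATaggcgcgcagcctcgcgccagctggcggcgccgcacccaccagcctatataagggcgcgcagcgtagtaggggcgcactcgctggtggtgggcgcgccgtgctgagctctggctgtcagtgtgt
GDF15: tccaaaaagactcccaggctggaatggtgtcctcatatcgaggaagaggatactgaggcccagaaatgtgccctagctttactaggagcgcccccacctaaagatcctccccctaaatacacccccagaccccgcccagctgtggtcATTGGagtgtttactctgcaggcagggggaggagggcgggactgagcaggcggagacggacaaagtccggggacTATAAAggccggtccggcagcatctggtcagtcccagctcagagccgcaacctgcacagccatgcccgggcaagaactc
TATAAA began 31 bases before the start in GADD45B and 29 bases before it in GDF15, and 11.5% of the 35116 promoters of this length in the table hold it. Only these exact letters were searched. The GADD45G window lacks them but holds the close variant tatataag shortly before the start, so it is not shown to lack a TATA box. CCAAT lay 82 and 45 bases before the start in GADD45B and 79 before it in GADD45G, and on the minus strand, as ATTGG, 103 bases before it in GDF15. It occurs in 34.6% of the promoters. CACGTG, the core E-box, lay 168 bases before the start in GADD45B and 143 before it in GADD45G, and 7.26% of promoters hold it. The GDF15 window starts inside the gene as the count table bounds it, because the table also counts an exon further upstream. Both strands were also searched for GGGCGG, the AP-1 letters TGACTCA, the CRE letters TGACGTCA, TGACNNNGC of antioxidant response elements, and TGATGNAA of ATF4 and CHOP sites, with matches allowed to overlap. GGGCGG occurred in GDF15 only, and TGACNNNGC and TGATGNAA in GADD45G only, against 45%, 13.3% and 3.62% of all promoters. TGACTCA and TGACGTCA were not in these windows and are held by 4.95% and 1.85% of all promoters.

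Total counts ran from 35105152 to 44132931 in the SKOV3 libraries and from 30016475 to 37220879 in the A2780 libraries. The mitochondrial share of counts was 4.361% to 5.235% in SKOV3 and 10.6% to 16.51% in A2780, with the lowest A2780 shares in 20 mg/L replicate 2 and 40 mg/L replicate 1. The lines fitted their labels in part. ERBB2, which is amplified in SKOV3, had 2760 ± 69 CPM, counts scaled to the library's size, in DMSO-treated SKOV3 and 64.6 ± 0.813 CPM in DMSO-treated A2780 (SD, n = 3 each). The 8 epithelial and ovarian cancer markers summed to 4530 to 4630 CPM in DMSO-treated SKOV3 and to 69 to 72.4 CPM in DMSO-treated A2780, where KRT8 had 1.32 CPM, PAX8 0.222 CPM and WT1 no count. In SKOV3 their sum was 3530 to 3580 CPM at 40 mg/L, with log2 fold changes of −1.96 for KRT19, −0.81 for EPCAM and 0.90 for PAX8, and in A2780 it was 91.6 to 93.2 CPM at 40 mg/L. The 10 immune, endothelial and stromal markers summed to 401 to 429 CPM in SKOV3 at 40 mg/L and 445 to 474 CPM with DMSO, and to 85.2 to 95.9 CPM in A2780 at 40 mg/L and 104 to 114 CPM with DMSO. COL1A1 (378 CPM) and CD68 (74.5 CPM) led that list in DMSO-treated SKOV3 and DCN (83.3 CPM) in DMSO-treated A2780, while PTPRC, CD3E, LYZ, CDH5 and VWF were near 0 throughout. Endothelial PECAM1 had a log2 fold change of −1.75 in SKOV3 at 40 mg/L. The part of these marker changes in the results was not tested. In these bulk samples, fewer cells expressing a gene and less RNA of it per cell cannot be told apart.

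GADD45A was the most abundant member. Its 8.71-fold higher level in SKOV3 at 40 mg/L was the largest single fold change against DMSO of the 3 members measurable. Levels below are CPM scaled within a line unless a sentence says otherwise. In SKOV3 the libraries had 33.2, 35.4 and 32.6 CPM with DMSO, 50.8, 48.6 and 52.5 CPM with 20 mg/L, and 302, 279 and 300 CPM with 40 mg/L. No group overlapped another, and the step between 20 and 40 mg/L was by far the larger one. Against DMSO the log2 fold change was 0.59 (SE 0.06) at 20 mg/L and 3.12 (SE 0.06) at 40 mg/L, and it was 2.54 (SE 0.06) at 40 against 20 mg/L. Of the 21936 genes tested in SKOV3, 19 had a higher log2 fold change than GADD45A at 40 mg/L, and 870 at 20 mg/L.

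In A2780 GADD45A had 24.6, 29 and 33.4 CPM with DMSO, 61.1, 60.5 and 55.5 CPM with 20 mg/L, and 63, 67.2 and 63.9 CPM with 40 mg/L. Here the higher level was already present at 20 mg/L, and the 40 mg/L libraries lay just above the 20 mg/L libraries without overlap. The log2 fold change was 1.03 (SE 0.08) at 20 mg/L and 1.16 (SE 0.08) at 40 mg/L against DMSO, and 0.13 (SE 0.08) at 40 against 20 mg/L. The 20 mg/L response amounted to 18.8% of the 40 mg/L response on the log2 scale in SKOV3 and to 88.7% in A2780.

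GDF15, the secreted stress cytokine, was a low-abundance transcript that was higher at both doses in both lines. Its fold change was larger than that of GADD45A in every comparison with DMSO except SKOV3 at 40 mg/L. In SKOV3 it had 1.26, 1.37 and 1.13 CPM with DMSO, 3.93, 4.86 and 5.06 CPM with 20 mg/L, and 5.74, 7.01 and 7.82 CPM with 40 mg/L. The 3 groups did not overlap. Its log2 fold change in SKOV3 was 1.88 (SE 0.17) at 20 mg/L, a 3.68-fold higher level, and 2.45 (SE 0.16) at 40 mg/L, a 5.47-fold higher level. In SKOV3 24 genes had a higher log2 fold change than GDF15 at 20 mg/L, and 56 at 40 mg/L.

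In A2780 GDF15 had 3.7, 4.78 and 4.08 CPM with DMSO, 9.01, 11.7 and 9 CPM with 20 mg/L, and 12.1, 10 and 12.8 CPM with 40 mg/L. Both treated groups lay above all DMSO libraries, while the treated groups overlapped each other. The log2 fold change was 1.24 (SE 0.14) at 20 mg/L, a 2.36-fold higher level, and 1.47 (SE 0.14) at 40 mg/L, a 2.77-fold higher level. The 40 against 20 mg/L log2 fold change was 0.57 (SE 0.13) in SKOV3 and 0.23 (SE 0.12) in A2780. GDF15 thus had 76.7% of its 40 mg/L log2 response at 20 mg/L in SKOV3 and 84.2% in A2780. With both A2780 libraries of lowest mitochondrial share left out, the A2780 log2 fold change at 40 mg/L was 1.44 for GDF15 and 1.17 for GADD45A.

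GADD45B differed little between treatments. In SKOV3 it had 11.8, 12.2 and 11.3 CPM with DMSO, 11.2, 12.6 and 11.2 CPM with 20 mg/L, and 17.2, 13.4 and 16.9 CPM with 40 mg/L. The 20 mg/L libraries overlapped the DMSO libraries, and all 3 of the 40 mg/L libraries lay above both. Its log2 fold change in SKOV3 was −0.01 (SE 0.09) at 20 mg/L and 0.44 (SE 0.09) at 40 mg/L, a 1.35-fold higher level. In A2780 it had 3.31, 3.52 and 3.48 CPM with DMSO, 4.6, 5.25 and 4.34 CPM with 20 mg/L, and 4.9, 4.64 and 4.26 CPM with 40 mg/L. Both treated groups lay above DMSO and overlapped each other, with log2 fold changes of 0.46 (SE 0.15) at 20 mg/L and 0.42 (SE 0.15) at 40 mg/L. In SKOV3 at 40 mg/L 18% of the tested genes had a higher log2 fold change than GADD45B, and in A2780 14.9%.

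GADD45G was nearly undetected, with 12 counts over all 18 libraries. It had 0, 0 and 2 counts in SKOV3 at 20 mg/L, 2, 0 and 2 counts in SKOV3 at 40 mg/L, and 4, 0 and 2 counts in A2780 at 40 mg/L. The other libraries, all 6 DMSO libraries among them, had 0 counts. If counts are independent, a count of 0 allows up to 3 counts. This is 0.068 to 0.0855 CPM in a SKOV3 library and 0.0806 to 0.0999 CPM in an A2780 library, covering counting error only. Small counts were mostly even, and if both reads of a pair were counted, the limit would lie higher. GADD45G failed the filter on low counts in every fit and no fold is given for it, so 3 of the 4 members carry fold changes.

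Read against all genes tested, treated libraries without overlap were common. At 40 mg/L all 3 of the measurable members lay above DMSO without overlap in both lines, beside 29.3% of genes in SKOV3 and 22.7% in A2780 that did so. At 20 mg/L 2 of 3 did so in SKOV3, beside 13.6% of genes, and 3 of 3 in A2780, beside 22.9%. At 40 against 20 mg/L 3 of 3 lay higher without overlap in SKOV3, beside 26.4%, and 1 of 3 in A2780, beside 15.3%. The members were chosen from these contrasts, and nothing is read from their counts.

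**Figure D1:**
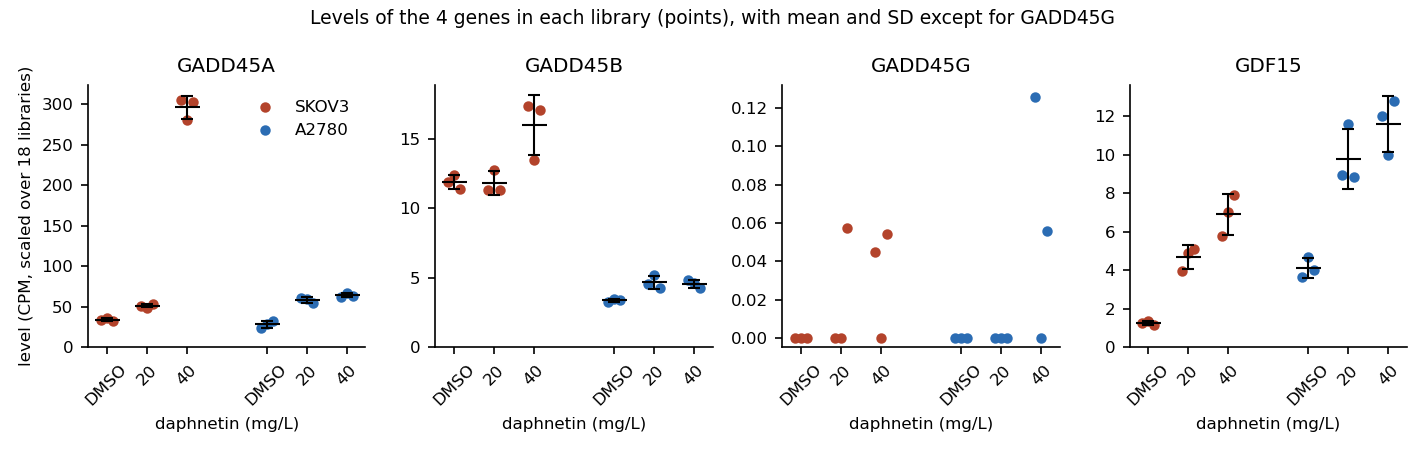
Level in CPM scaled over all 18 libraries (vertical axis, linear, a scale of its own for each gene) of the 4 genes in each library, by daphnetin dose in mg/L and cell line. Points are libraries, and bars are means with SD of 3 libraries except for GADD45G, where only points are drawn; GADD45A in SKOV3 at 40 mg/L stands at 296 ± 13.6 CPM, above every other group.

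**Figure D2:**
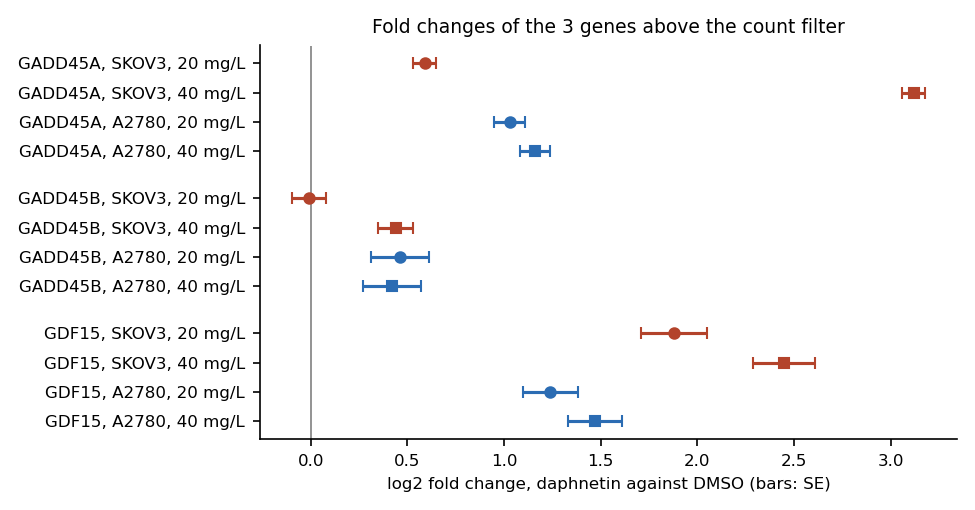
Log2 fold change of daphnetin against DMSO (horizontal axis) of GADD45A, GADD45B and GDF15 at 20 and 40 mg/L in each line, with bars for the SE. The widest gap between doses is that of GADD45A in SKOV3, 0.59 at 20 mg/L and 3.12 at 40 mg/L.

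The lines differed already in DMSO. For this comparison CPM were scaled over all 18 libraries. GADD45B had 11.9 ± 0.496 CPM in SKOV3 and 3.38 ± 0.114 CPM in A2780 (SD, n = 3 each), a 3.51-fold higher level in SKOV3. GDF15 had 1.27 ± 0.121 CPM in SKOV3 and 4.12 ± 0.54 CPM in A2780, a level 3.26-fold lower in SKOV3. GADD45A was close in both lines, at 34.1 ± 1.56 CPM in SKOV3 and 28.5 ± 4.32 CPM in A2780, with a log2 difference of 0.26 (SE 0.07). Libraries of the 2 lines did not overlap for any of the 3 genes, and 79.6% of genes tested separated in this way. For GADD45A the gap was very narrow, between 32.8 CPM in the highest A2780 library and 32.9 CPM in the lowest SKOV3 library.

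The response of SKOV3 minus that of A2780, on the log2 scale, changed sign between doses for GADD45A. It was −0.45 (SE 0.10) at 20 mg/L and 1.94 (SE 0.10) at 40 mg/L. For GDF15 the difference was 0.64 (SE 0.23) at 20 mg/L and 0.96 (SE 0.22) at 40 mg/L, positive at both. For GADD45B it was −0.48 (SE 0.17) at 20 mg/L and −0.01 (SE 0.16) at 40 mg/L. The larger GDF15 fold in SKOV3 started from a lower level, and at 40 mg/L GDF15 still had 6.91 ± 1.05 CPM in SKOV3 and 11.6 ± 1.44 CPM in A2780 (SD, n = 3 each).

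Within the GADD45 family GADD45A dominated in every group. Divided by exonic length and scaled over all 18 libraries, GADD45A had 16.5 CPM per kilobase in SKOV3 with DMSO, 24.8 with 20 mg/L and 143 with 40 mg/L. In A2780 it had 13.8 with DMSO, 28.2 with 20 mg/L and 31.1 with 40 mg/L. GADD45B had 5.55, 5.52 and 7.48 CPM per kilobase in SKOV3 with DMSO, 20 and 40 mg/L, and 1.58, 2.19 and 2.14 in A2780. GADD45A made up 74.8% ± 0.286 of the family's level per kilobase in SKOV3 with DMSO, 81.7% ± 1.56 with 20 mg/L and 95% ± 0.441 with 40 mg/L (SD, n = 3 each). In A2780 its share was 89.6% ± 1.18 with DMSO, 92.8% ± 0.491 with 20 mg/L and 93.4% ± 0.605 with 40 mg/L. GDF15 stood on the same scale at 0.607, 2.24 and 3.31 CPM per kilobase in SKOV3 with DMSO, 20 and 40 mg/L, and at 1.97, 4.69 and 5.54 in A2780. GDF15 therefore lay below GADD45B in SKOV3 and above it in A2780 at each treatment.

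The genes whose profiles lay nearest to each member were looked for among 11559 genes averaging at least 5 CPM, by the root mean square difference in log2 CPM over the 18 libraries after each line's mean was taken off. For GADD45A they were SRXN1, which encodes sulfiredoxin, at 0.19, TXNRD1, thioredoxin reductase, at 0.27, and CTGF, a matricellular protein gene, at 0.33. The median distance of all candidates to GADD45A was 1.04. At 40 mg/L against DMSO SRXN1 had a log2 fold change of 2.87 (SE 0.06) in SKOV3 and 1.51 (SE 0.08) in A2780, the same steep shape in SKOV3 as GADD45A. For GDF15 the nearest were FTL, the ferritin light chain gene, at 0.32, NQO1, the quinone reductase gene, at 0.37, and SLC3A2, the heavy chain of several amino acid transporters, at 0.38, with a median of 0.88. FTL had log2 fold changes of 1.92 (SE 0.06) in SKOV3 and 1.97 (SE 0.10) in A2780 at 40 mg/L. For GADD45B, whose own changes were small, HSDL1, CRY1 and ZNF567 were each at 0.09, with a median of 0.28. These distances describe likeness over the 18 libraries and carry no test.

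**Figure D3:**
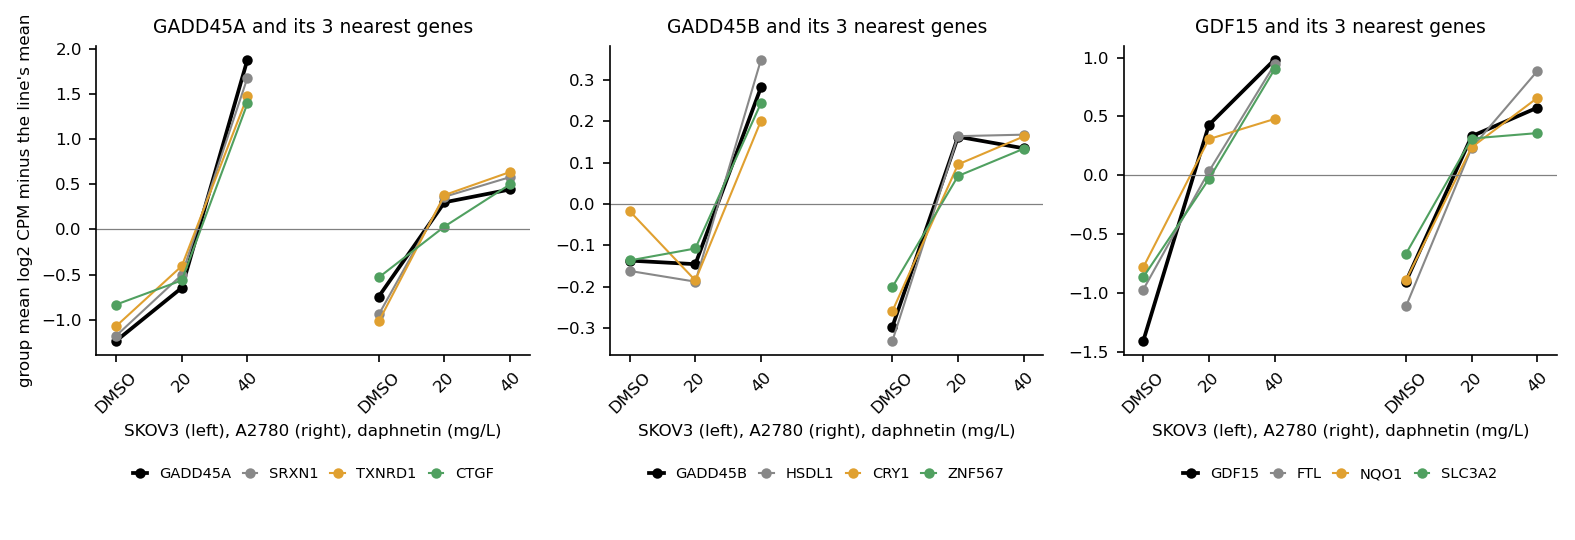
Group means of log2 CPM after each line's mean was taken off (vertical axis) against daphnetin dose in mg/L, SKOV3 left and A2780 right, for GADD45A, GADD45B and GDF15 (black) and the 3 genes nearest to each. The vertical scales differ, and GADD45A spans the widest range, with its steepest step between 20 and 40 mg/L in SKOV3.

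Genes known to act with or upstream of the members were taken in 6 lists of 118 genes and tested with edgeR's quasi-likelihood test, adjusted by Benjamini-Hochberg over all genes and called at an adjusted p under 0.05. These p-values measure only the spread between libraries of the same group. That spread was estimated jointly over all groups of a fit and with information from other genes. At 40 mg/L 73 of 109 tested companions were called in SKOV3, 49 higher and 24 lower, where 52.1% of all genes were called. In A2780 60 of 101 were called, 43 higher and 17 lower, where 36.9% of all genes were called. At 20 mg/L 34 of 109 were called in SKOV3, beside 10.1% of all genes, or 2217, which were 1443 without DMSO replicate 3, and 57 of 101 in A2780, beside 36.9%. At 40 against 20 mg/L 73 of 109 were called in SKOV3, beside 47.4%, and 24 of 101 in A2780, beside 14.6%. Leaving out A2780 20 mg/L replicate 3 or 40 mg/L replicate 2 brought these 24 to 10, and leaving out 40 mg/L replicate 3 to 11. The count over all genes behind the 14.6%, 2999, also fell, to 1583, 1797 and 2019 without these 3 libraries in turn. The difference between the lines' responses was called for 57 of 109 at 40 mg/L, beside 29.9%, and for 41 at 20 mg/L, beside 21.6%. In DMSO 96 of 109 differed between the lines, beside 78.3%.

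Most genes of the list of DNA damage response genes rose in SKOV3 at 40 mg/L and in A2780 at both doses. In SKOV3 0 of its 19 genes were called at 20 mg/L by edgeR's quasi-likelihood test and 0 by DESeq2, and 1 had an unadjusted p under 0.05 there, where 5.16% of all genes were called higher and 4.95% lower. At 40 mg/L 11 rose and 2 fell in SKOV3, where 26.4% and 25.6% of all genes did, and the median log2 fold change was 0.186, against 0.0116 over all genes. In A2780 16 of the 19 rose and 0 fell at 20 mg/L and again at 40 mg/L, where the median was 0.758, against −0.0143 over all genes. Of all genes in A2780 18% were called higher and 18.9% lower at 20 mg/L, and 17.7% and 19.2% at 40 mg/L. The difference between lines was called for 16 of 19 genes at 40 mg/L, 2 larger and 14 smaller in SKOV3, where 14.3% and 15.7% of all genes were called. At 20 mg/L it was called for 15, all smaller in SKOV3, where 10.6% of all genes were called smaller and 11% larger.

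CDKN1A, which encodes the CDK inhibitor p21, rose to 7.27 ± 0.627 CPM in SKOV3 at 40 mg/L, against 3.82 ± 0.261 CPM with DMSO (SD, n = 3 each), which is 0.92 on the log2 scale (SE 0.13, adjusted p = 2.1e-07). In A2780 it rose to 28.3 ± 2.1 CPM at 40 mg/L, against 8.55 ± 1.6 CPM with DMSO, which is 1.73 on the log2 scale (SE 0.12) with an adjusted p of 5.48e-11. At 20 mg/L the log2 fold change of CDKN1A was 0.24 (SE 0.13, adjusted p = 0.302) in SKOV3 and 1.41 (SE 0.12, adjusted p = 1.86e-09) in A2780. MDM2, a ubiquitin ligase gene induced by DNA damage, changed by 0.16 in SKOV3 (SE 0.06, adjusted p = 0.0132) and by 0.85 in A2780 (SE 0.07, adjusted p = 6.54e-11) at 40 mg/L. The SKOV3 call of MDM2 needed 3 single libraries: its adjusted p was 0.083 with replicate 2 of the 40 mg/L group left out, 0.0677 with DMSO replicate 1 left out and 0.0616 with DMSO replicate 3 left out. ZMAT3, which encodes a zinc finger RNA-binding protein, rose by 0.70 in SKOV3 and by 1.17 in A2780, whereas FAS, the death receptor gene, fell by 0.92 in SKOV3 (SE 0.11) and rose by 0.78 in A2780 (SE 0.08).

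The kinases and factors of the eIF2alpha route, through which ATF4 and CHOP are made, mostly rose in both lines at 40 mg/L. In SKOV3 7 of 18 rose and 0 fell at 20 mg/L, beside 5.16% and 4.95% of all genes, with a median log2 fold change of 0.128, against 0.00215 over all genes. At 40 mg/L 13 rose and 3 fell in SKOV3, beside 26.4% and 25.6%, with a median of 0.922, against 0.0116. In A2780 6 rose and 4 fell at 20 mg/L, beside 18% and 18.9% of all genes, with a median of 0.134, against 0.00815. At 40 mg/L 12 rose and 1 fell in A2780, beside 17.7% and 19.2%, with a median of 0.39, against −0.0143. The difference between lines at 40 mg/L was called for 13 of 18 genes, 10 larger and 3 smaller in SKOV3, beside 14.3% and 15.7% of all genes. ATF3, a stress-induced repressor of the ATF family, had 5.48 ± 1.04 CPM in SKOV3 with DMSO, 9.48 ± 0.949 CPM at 20 mg/L and 63.2 ± 2.92 CPM at 40 mg/L (SD, n = 3 each). In A2780 ATF3 was low, at 0.745 ± 0.223 CPM with DMSO and 2.14 ± 0.207 CPM at 40 mg/L, from 73 and 218 counts per group. Its log2 fold change at 40 mg/L was 3.53 (SE 0.09, adjusted p = 1.11e-25) in SKOV3 and 1.51 (SE 0.26, adjusted p = 3.39e-05) in A2780, and the lines differed by 2.00 (SE 0.27, adjusted p = 1.63e-07). At 20 mg/L it was 0.79 (SE 0.10, adjusted p = 7.59e-07) in SKOV3 and 0.65 (SE 0.28, adjusted p = 0.0676) in A2780, where it passed with replicate 1 of DMSO left out (0.0296) or replicate 3 of 20 mg/L left out (0.0494). DDIT3, which encodes CHOP, rose by 1.99 in SKOV3 (SE 0.05) and by 1.20 in A2780 (SE 0.08) at 40 mg/L, and 28% of its exonic bases lie opposite exons of MARS. PPP1R15A, which encodes the phosphatase subunit GADD34 and is no member of the GADD45 family, rose by 1.99 in SKOV3 (SE 0.06) and by 1.46 in A2780 (SE 0.10). ATF4 mRNA rose by 0.89 in SKOV3 (SE 0.05) and by 0.43 in A2780 (SE 0.06). At 20 mg/L ATF4, DDIT3 and PPP1R15A rose by 0.31, 0.56 and 0.39 in SKOV3, and by 0.25, 1.00 and 1.14 in A2780.

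**Figure D4:**
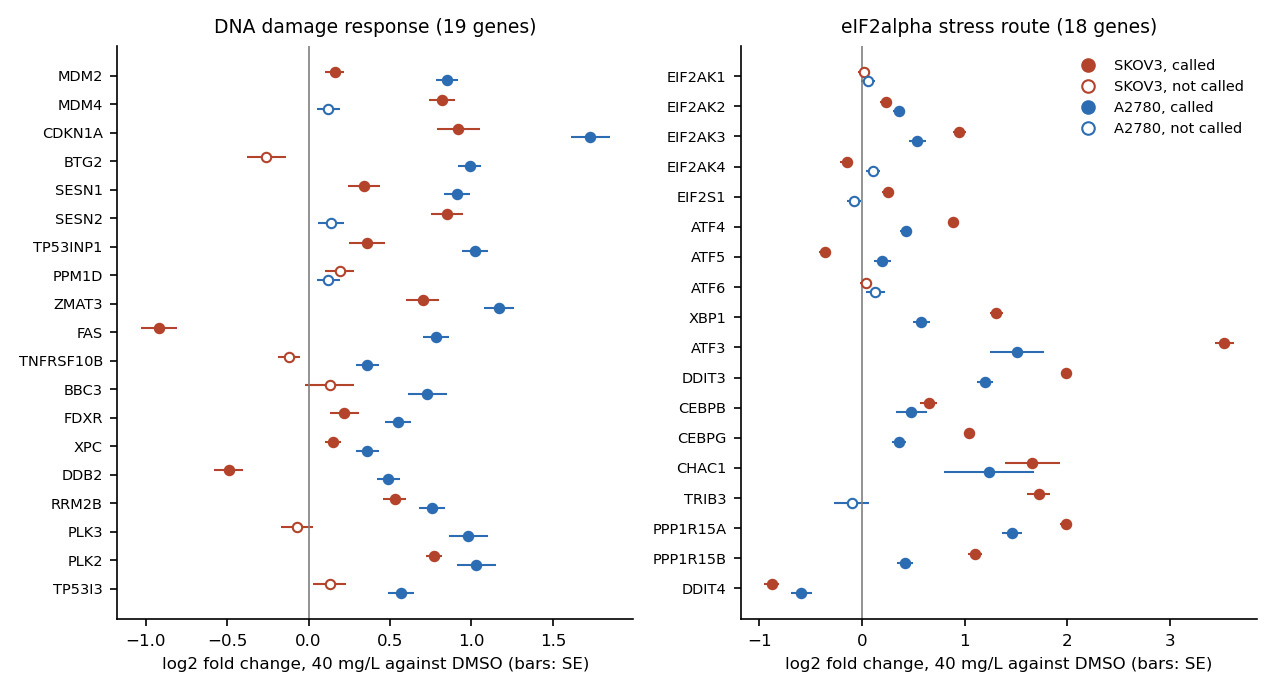
Log2 fold change at 40 mg/L against DMSO (horizontal axis) with bars for the SE, for the 19 DNA damage response genes (left) and the 18 genes of the eIF2alpha route (right), in SKOV3 (red) and A2780 (blue). Filled points were called and open points were not; CDKN1A stands at 0.92 in SKOV3 and 1.73 in A2780, and ATF3 at 3.53 in SKOV3 and 1.51 in A2780.

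Of 20 other transcription factors reported to act at GADD45 genes, 11 rose and 2 fell in SKOV3 at 40 mg/L, beside 26.4% and 25.6% of all genes. In A2780 7 of 19 tested rose and 2 fell, beside 17.7% and 19.2%. JUN, an AP-1 subunit, rose by 1.45 in SKOV3 (SE 0.05) and by 1.67 in A2780 (SE 0.18). MYC, described as a repressor of GADD45A, went in opposite directions: it rose by 1.69 in SKOV3 (SE 0.06, adjusted p = 7.27e-22) and fell by 1.06 in A2780 (SE 0.07, adjusted p = 4.09e-12), and the lines differed by 2.72 (SE 0.10, adjusted p = 1.23e-23). EGR1, an immediate early factor, rose by 2.62 in SKOV3 (SE 0.17, adjusted p = 1.69e-06). In A2780 it was at 1.46 (SE 0.48, adjusted p = 0.0573), with all 3 treated libraries above DMSO, and it passed without 20 mg/L replicate 3 (6.01e-12) and by DESeq2 (0.00528).

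Among the partners of GADD45 proteins and the MAP kinase route, 5 of 24 rose and 8 fell in SKOV3 at 40 mg/L, beside 26.4% and 25.6% of all genes, and 4 rose and 10 fell in A2780, beside 17.7% and 19.2%. The shares that rose, and the share that fell in SKOV3, were near those over all genes. CCNB1, which encodes the cyclin B1 that GADD45 proteins bind with CDK1, had 22.6 ± 1.52 CPM in SKOV3 at 40 mg/L and 191 ± 3.79 CPM with DMSO (SD, n = 3 each), and it fell by 3.08 on the log2 scale (SE 0.06, adjusted p = 1.33e-29). In A2780 it had 50 ± 0.333 CPM at 40 mg/L and 154 ± 3.75 CPM with DMSO, and it fell by 1.62 (SE 0.07, adjusted p = 5.18e-17). AURKA, the mitotic kinase that GADD45A is known to bind, fell by 2.68 in SKOV3 (SE 0.08) and by 1.11 in A2780 (SE 0.10). MAP3K4, the kinase that GADD45 proteins activate, was at −0.08 in SKOV3 on the log2 scale (SE 0.05, adjusted p = 0.217) and fell by 0.20 in A2780 (SE 0.07, adjusted p = 0.0207). The A2780 call of MAP3K4 did not hold once DMSO replicate 2 was dropped (adjusted p = 0.11), nor with DMSO replicate 3 (0.0815) or, of the 40 mg/L group, replicate 2 (0.0975) or replicate 3 (0.05) dropped, nor with no filter on low counts (0.0632).

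For the processing and reception of GDF15, 2 of 5 tested genes rose and 2 fell in SKOV3 at 40 mg/L, beside 26.4% and 25.6% of all genes, and 1 of 4 rose and 1 fell in A2780, beside 17.7% and 19.2%. Counts this small say nothing about the group as a whole. GFRAL, the brain-stem receptor of GDF15, had 0 counts in all 18 libraries. RET, its co-receptor, rose by 0.50 in SKOV3 (SE 0.12, adjusted p = 0.00086) and was at 0.49 on the log2 scale in A2780 (SE 0.22, adjusted p = 0.0776), which passed without both libraries of lowest mitochondrial share (0.0486). FURIN, a proprotein convertase, fell by 0.31 in SKOV3 (SE 0.07, adjusted p = 0.000165) and rose by 0.56 in A2780 (SE 0.10, adjusted p = 4.38e-05). PCSK5, another convertase, rose by 0.54 in SKOV3 (SE 0.07) and was below the count filter in A2780. PCSK6 fell by 0.31 in SKOV3 (SE 0.13, adjusted p = 0.0461) and by 0.42 in A2780 (SE 0.10, adjusted p = 0.0018). Its SKOV3 call was lost with no filter on low counts (0.0627), by DESeq2 (0.0568), and with any of 6 libraries dropped: replicate 1 (0.173) or 2 (0.0944) of DMSO, 1 (0.0516) or 2 (0.0519) of the 20 mg/L group, and 2 (0.164) or 3 (0.137) of the 40 mg/L group.

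Other ligands of the TGF-beta superfamily were called about as often as genes in general. Of 23 tested in SKOV3, 7 rose and 7 fell at 40 mg/L, beside 26.4% and 25.6% of all genes, and of 17 in A2780 3 rose and 3 fell, beside 17.7% and 19.2%. TGFB3 fell by 0.89 in SKOV3 (SE 0.13) and was at −0.08 in A2780 (SE 0.07, adjusted p = 0.408). BMP4, a bone morphogenetic protein gene, fell by 0.85 in SKOV3 (SE 0.09) and rose by 1.04 in A2780 (SE 0.25). Its level in A2780 was low, at 0.757 CPM with DMSO and 1.56 CPM at 40 mg/L, against 15.4 and 8.51 CPM in SKOV3. BMP8B rose by 0.71 in SKOV3 and by 0.56 in A2780, and GDF9, known as an oocyte factor, fell by 0.26 in SKOV3 and by 0.41 in A2780.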

How the data were processed

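Whole-number read counts per gene for the 18 libraries, not normalised, were used as the authors deposited them, with gene positions per the file headers. Stranded mRNA libraries were made from total RNA, per the labels' protocols. The submitters' processing notes list Trimmomatic 0.36 and the build GRCh38. Aligner, counter, strand setting and annotation release were not given in the sources used here, and the bounds of the 4 members in the table equalled GENCODE v29. From 1 to 12, 74% to 77% of a library's counts were even, as when both reads of a pair are counted, and halving the counts was tried. The table has 28 identifiers turned into dates, with 0.161% to 0.194% of counts, which stayed in the totals. Replicates differed by more than counting error in all 18 pairs (chi-square per degree of freedom 5.03 to 34.7).

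Genes were kept by filterByExpr, scaled by TMM and tested with edgeR 4.0.16 (quasi-likelihood F test, robust, R 4.3.3), two-sided, with Benjamini-Hochberg adjustment over all genes. The 9 libraries of a line formed 1 fit (21936 genes in SKOV3, 20593 in A2780, 6 residual degrees of freedom). The differences between lines came from a fit of 18 libraries (23742 genes, 12 residual degrees of freedom). The scripts were tested on simulated data. Beside all 4 members, the text names 10 companions in any case, and 1 companion gene is not reported here. It adds, per list and line, the 2 with the largest change at 40 mg/L among those called, with a mean of 5 CPM or more in the higher group and no overlap between libraries. Members and lists were chosen with earlier results of these data known. Alternatives were DESeq2 1.42.0, its size factors, no filter, mitochondrial genes left out, halved counts, the replicate number as a block and each library left out. Sequences are from RefSeq (promoters, 3 of 4 members matched) and GENCODE v29 (coding sequences).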

Additional observations from a re-analysis of the deposited data

Results flagged for a closer look

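The response to 40 mg/L against DMSO differed between the lines, by the interaction test over all 18 libraries (edgeR's quasi-likelihood test, adjusted over all genes), for 14 of the 22 named companion genes that could be tested, where 29.9% of all genes were called. Many of these companions are named for a large change at 40 mg/L, so nothing is read from that count. The values are SKOV3 minus A2780 on the log2 scale. For MYC, which rose in SKOV3 and fell in A2780, the difference was 2.72. The rise was larger in SKOV3 for ATF3 by 2.00, DDIT3 by 0.76, PPP1R15A by 0.51 and ATF4 by 0.44. The difference was −1.91 for BMP4 and −1.72 for FAS, genes that fell in SKOV3 and rose in A2780, and −0.90 for FURIN, which did the same. ATF3 and BMP4 were low in DMSO-treated A2780, at 0.745 and 0.757 CPM. The difference was −1.60 for AURKA and −1.48 for CCNB1, which fell in both lines. It was −0.83 for CDKN1A, −0.71 for MDM2 and −0.49 for ZMAT3, which rose in both lines, and −0.83 for TGFB3. The members have no entry here, because they were chosen with these contrasts known.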

How the results depend on the processing

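All 504 recomputed log2 fold changes of GADD45A, GADD45B and GDF15 moved by less than the spread between replicates. The settings were DESeq2, other size factors, no filter, mitochondrial genes left out, halved counts, the replicate block and single libraries left out. Both A2780 libraries of lowest mitochondrial share were also removed, an alternative chosen after seeing the data. For all 504 values this outcome was nearly fixed in advance, and nothing is read from it. Dropping 1 of 3 libraries, as for 324 of the values, can hardly move a group mean by more than that spread. The other settings leave a gene's ratio of group means nearly as it was. With 1 library left out, the SKOV3 log2 fold change at 40 mg/L ran from 3.09 to 3.16 for GADD45A, from 0.37 to 0.54 for GADD45B and from 2.35 to 2.57 for GDF15, and in A2780 from 1.07 to 1.28, from 0.37 to 0.47 and from 1.39 to 1.59. The companions called at 40 against 20 mg/L in A2780, 24, ran from 10 to 29 with 1 library left out: 10 without 20 mg/L replicate 3 or 40 mg/L replicate 2, and 11 without 40 mg/L replicate 3. The cause was not tested. The line difference at 40 mg/L, not called for either gene, changed sign for RET (−0.01, range −0.12 to 0.06) and PCSK6 (0.08, range −0.06 to 0.15). All genes called in SKOV3 at 20 mg/L, 2217, were 1443 without DMSO replicate 3. Of 2016 list counts 133 moved by over 1.5 times or away from 0, the 2 GDF15 processing genes that fell in SKOV3 to 1 among them. Replicate numbers were not taken to pair libraries: same-numbered deviations correlated from −0.24 to 0.42 in SKOV3, where 7 of 9 libraries matched their own number best, and from −0.32 to 0.21 in A2780, where 1 of 9 did. With the replicate block the companions called at 40 mg/L were 77 in SKOV3 and 59 in A2780. The log2 fold changes of GADD45A were 3.12 and 1.16 there. Each replicate number stands in every group of a line, so the block could hardly change them. Depth limits GADD45G, at 12 counts in all, and leaves GDF15 at 47 to 54 counts per DMSO-treated SKOV3 library.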
